A study of Mus musculus with 28 samples.

Results

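The 10 genes described here were chosen by name as readouts and parts of the Hippo pathway and as stretch-gated channels, out of 53801 genes in the RNA count files. Ccn1 (also Cyr61), Ccn2 (also Ctgf) and Ankrd1 are standard transcriptional targets of the coactivators YAP and TAZ. Amotl2 and Lats2 are targets whose products also restrain these coactivators. Yap1 and Wwtr1 encode YAP and TAZ themselves, and Tead1 encodes a DNA-binding partner. Piezo1 and Piezo2 encode cation channels that open when the membrane is stretched. Each gene was followed in bulk RNA by its Ensembl identifier, in single cells by marker-defined class, and in ATAC-seq by the peaks within the gene and 10 kb on each side.

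YAP and TAZ move between cytoplasm and nucleus, and LATS kinases and angiomotins hold them in the cytoplasm. On stiff matrix or under stretch they enter the nucleus, bind TEAD factors and raise transcription of genes such as Ccn1 and Ccn2, which encode secreted matricellular proteins. In the skeleton YAP, TAZ and the Piezo channels are known for their part in how osteoblast-lineage cells and chondrocytes respond to load. Ccn2 is known for its part in growth plate cartilage.

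Growth plate skeletal stem/progenitor cells (gpSSPCs, Ai9+ CD73+) and periosteal ones (pSSPCs, Ai9+ Sca1+), both outside a gate on CD31, CD45 and Ter119, were sorted at 20 weeks of age from control and conditional knockout (CKO) mice, with 3 libraries per group for bulk RNA-seq (1000 cells each) and 3 for ATAC-seq (3000 to 5000 cells each). All of these mice carried Prx1-Cre, which acts in limb mesenchyme, with the Ai9 reporter, and the CKO mice lack Zmpste24 (Z24), the gene of the protease that matures prelamin A, in that lineage. The single-cell libraries of bone marrow and bone, 1 per condition, came from Osx-Cre mice and Prx1-Cre mice at 8 weeks, and from control (PrxCre; Z24fl/+) and CKO (PrxCre; Z24fl/fl) mice at 16 weeks. According to the paper these mice carried the Ai9 reporter too, and their cells were sorted with the same CD31, CD45 and Ter119 antibodies. It states Ai9+ cells outside that gate for the 8-week libraries. The genotype field gives Z24fl/fl for every bulk library, controls included, and for both 8-week libraries, whereas the methods list the 8-week mice without the floxed allele, so groups follow the titles. Because Cre acts throughout the limb mesenchyme, neither sorted population was the only one to carry the deletion. Growth plates were digested longer than periosteum, so tissue and digestion cannot be told apart. No label names an animal, so p-values measure the spread between these samples, which may be technical. In the RNA fits that spread is in part or wholly pooled over genes.

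Bulk RNA libraries held 1333260 to 5315709 counts. In all 4 groups replicates 2 and 3 were close to each other. Their chi-square per degree of freedom was 0.805 to 0.972 for genes with 5 to 99 counts summed over the pair, which is within sampling noise, and 1.588 to 1.918 for all genes with at least 20, which is above it. With replicate 1 these values were 10.192 to 14.245 and 53.18 to 71.408. Replicates 2 and 3 were therefore summed and counted as 1 sample, which leaves 2 samples per group, called sample 1 (replicate 1) and sample 2 here. At an equal depth of 1333260 counts, replicate 1 detected 12082 to 12463 genes and the others 14263 to 15298, so sample 1 stands apart in all groups. Same-numbered libraries of different groups deviated together, with correlations of 0.503 to 0.633 over 6045 genes, so a fit with the replicate number as a block is given beside the fit without it. Replicate 2 of 1 group and replicate 3 of another correlated nearly as much (0.485 to 0.591). These correlations therefore mainly set replicate 1 apart from the others. ATAC-seq libraries kept 12250713 to 46756821 tags and 59209 to 101606 peaks. The single-cell libraries kept 993 (Prx1-Cre), 782 (Osx-Cre), 2068 (control) and 2362 (CKO) cells at a median of 1039, 923.5, 1426.5 and 1272.5 UMIs, and pairs of libraries shared 0 to 10 cell barcodes. The methods attach nearly these 16-week cell numbers to the opposite genotypes.

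The sorted populations carried the markers of their tissues. Summed chondrocyte markers, led by Col2a1, stood at 35720 and 26750 in control gpSSPC samples 1 and 2 and at 8067 and 4977 in the control pSSPC samples, in CPM of the library size scaled by edgeR's TMM factors (TMM-scaled CPM, the bulk RNA unit below). None of the 9 chondrocyte markers was at 0, so periosteal libraries also held cartilage transcripts. The periosteal markers summed to 31240 and 37090 in control pSSPCs and to 9939 and 28660 in control gpSSPCs. Zmpste24 itself was low: 0.7849 and 16.67 in control against 0 and 7.475 in CKO pSSPCs, and 4.627 and 15.94 against 1.13 and 7.959 in gpSSPCs, with sample 1 and sample 2 in that order. It was lower in CKO in each sample number, but the difference did not pass the test (gpSSPC log2 fold change -1.38 ± 1.15 SE with the block, edgeR quasi-likelihood test, adjusted p = 1). Only a floxed exon is removed, so counts over the whole gene check the labels in part. In single cells at 16 weeks Zmpste24 had 70 UMIs in control and 11 in CKO, which is 19.4 CPM (95% exact Poisson interval 15.1 to 24.5) and 3.14 CPM (1.57 to 5.62), the order of the labels. These and all later Poisson and binomial intervals cover counting error only.

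The 250 bases upstream of the start are printed for 3 of the target genes to show where the letters bound by TEAD factors lie. The motif searched was GGAATG or its reverse complement CATTCC, in RefSeq promoters of build GRCm38.p6, where 7 of the 10 genes had an entry. It was present in 12.6% of 32536 windows of this length and in the windows of 5 of those 7 genes. The motif is in capitals, each sequence runs 5′ to 3′ on the strand of the gene, and a match is only a description.
Ccn1, chr3:145649986-145650235, minus strand: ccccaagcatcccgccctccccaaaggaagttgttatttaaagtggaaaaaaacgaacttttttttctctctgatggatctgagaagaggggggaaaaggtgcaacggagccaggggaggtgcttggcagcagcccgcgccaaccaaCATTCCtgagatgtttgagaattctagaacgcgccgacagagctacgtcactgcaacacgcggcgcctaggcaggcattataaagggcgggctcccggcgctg
Ankrd1, chr19:36119845-36120094, minus strand: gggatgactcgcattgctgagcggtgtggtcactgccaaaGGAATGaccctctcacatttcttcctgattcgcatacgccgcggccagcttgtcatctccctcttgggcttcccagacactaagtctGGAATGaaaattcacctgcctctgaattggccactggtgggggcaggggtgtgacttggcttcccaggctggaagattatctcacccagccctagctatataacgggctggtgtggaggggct
Amotl2, chr9:102717554-102717803, plus strand: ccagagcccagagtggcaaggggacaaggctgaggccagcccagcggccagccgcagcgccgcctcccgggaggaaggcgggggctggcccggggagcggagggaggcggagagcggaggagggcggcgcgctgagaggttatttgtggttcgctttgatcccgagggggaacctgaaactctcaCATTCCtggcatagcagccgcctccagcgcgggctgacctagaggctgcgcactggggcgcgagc

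The Ccn1 copy begins 103 bases before the start and the Amotl2 copy 65 bases before it, both in the reverse complement. Ankrd1 has copies at 210 and 123 bases, both as written. Yap1 and Wwtr1 windows also held the motif, and those of Lats2 and Piezo1 did not. An ATAC peak overlapped the printed window of Ccn1 and of Amotl2 in all 12 libraries, and that of Ankrd1 in 1.

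Ccn1, on the minus strand at chr3:145646976-145649981, was higher in gpSSPCs than in pSSPCs. In samples 1 and 2 its level was 1712 and 2870 TMM-scaled CPM in control gpSSPCs (2291 ± 818.8, SD, n = 2) and 1112 and 1010 in control pSSPCs (1061 ± 72.1). In CKO mice it was 1531 and 2762 in gpSSPCs (2147 ± 870.2) and 712.7 and 894.9 in pSSPCs (803.8 ± 128.8). Within each genotype every gpSSPC sample lay above every pSSPC sample, as was so in this direction for 17.3% of genes tested in control and 14.7% in CKO mice. The same order held across both genotypes, for which no share over all genes is given. With the block Ccn1 was 2.15-fold higher in control gpSSPCs (log2 fold change 1.10 ± 0.22 SE, adjusted p = 6.28e-05, edgeR) and 2.56-fold higher in CKO gpSSPCs (1.36 ± 0.21, adjusted p = 8.71e-09), comparisons that share no library. Without the block the estimates were 1.15 ± 0.49 (adjusted p = 0.957) and 1.41 ± 0.49 (adjusted p = 0.979), and neither passed. Fewer cells of a type and less RNA per cell cannot be told apart in these bulk samples.

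The blocked fit leaves 1 residual degree of freedom per gene, so its errors rest on the spread pooled over genes. Between populations its p-values match a normal distribution for the estimate divided by its SE. The spread of Ccn1 or Ccn2 itself therefore adds next to nothing to them. This fit called 3.19% of the 12151 genes tested between control populations, 1.29% higher and 1.9% lower in gpSSPCs, and 4.6% of 11773 between CKO populations, 2.33% higher and 2.27% lower. Without the block edgeR called 0 genes in both, with 630 and 518 at an unadjusted p under 0.05, and DESeq2 called 163 and 99. With each library counted as a sample and the block kept, the adjusted p of Ccn1 between control populations was 0.0516.

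Ccn2, on the plus strand at chr10:24595442-24598683, followed the same order in control cells. It stood at 179.6 and 669.9 TMM-scaled CPM in control gpSSPCs and at 87.91 and 247.6 in control pSSPCs. It stood at 158.8 and 444.3 in CKO gpSSPCs and at 90.39 and 284.8 in CKO pSSPCs. Within each sample number gpSSPCs were higher, but the groups overlapped, since sample 2 was above sample 1 in all 4 groups. With the block Ccn2 was 2.42-fold higher in control gpSSPCs (1.28 ± 0.35, adjusted p = 0.0126, edgeR). In CKO cells the difference was 0.72 ± 0.29 and did not pass (adjusted p = 0.181), and without the block neither did (1.39 ± 0.76 and 0.68 ± 0.69). The population differences of Ccn1 and Ccn2 did not change with genotype past the threshold in the interaction test (0.36 ± 0.32 and -0.50 ± 0.42 with the block, adjusted p = 0.958 and 0.953), where 0.0152% of 13173 genes were called.

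**Figure D1:**
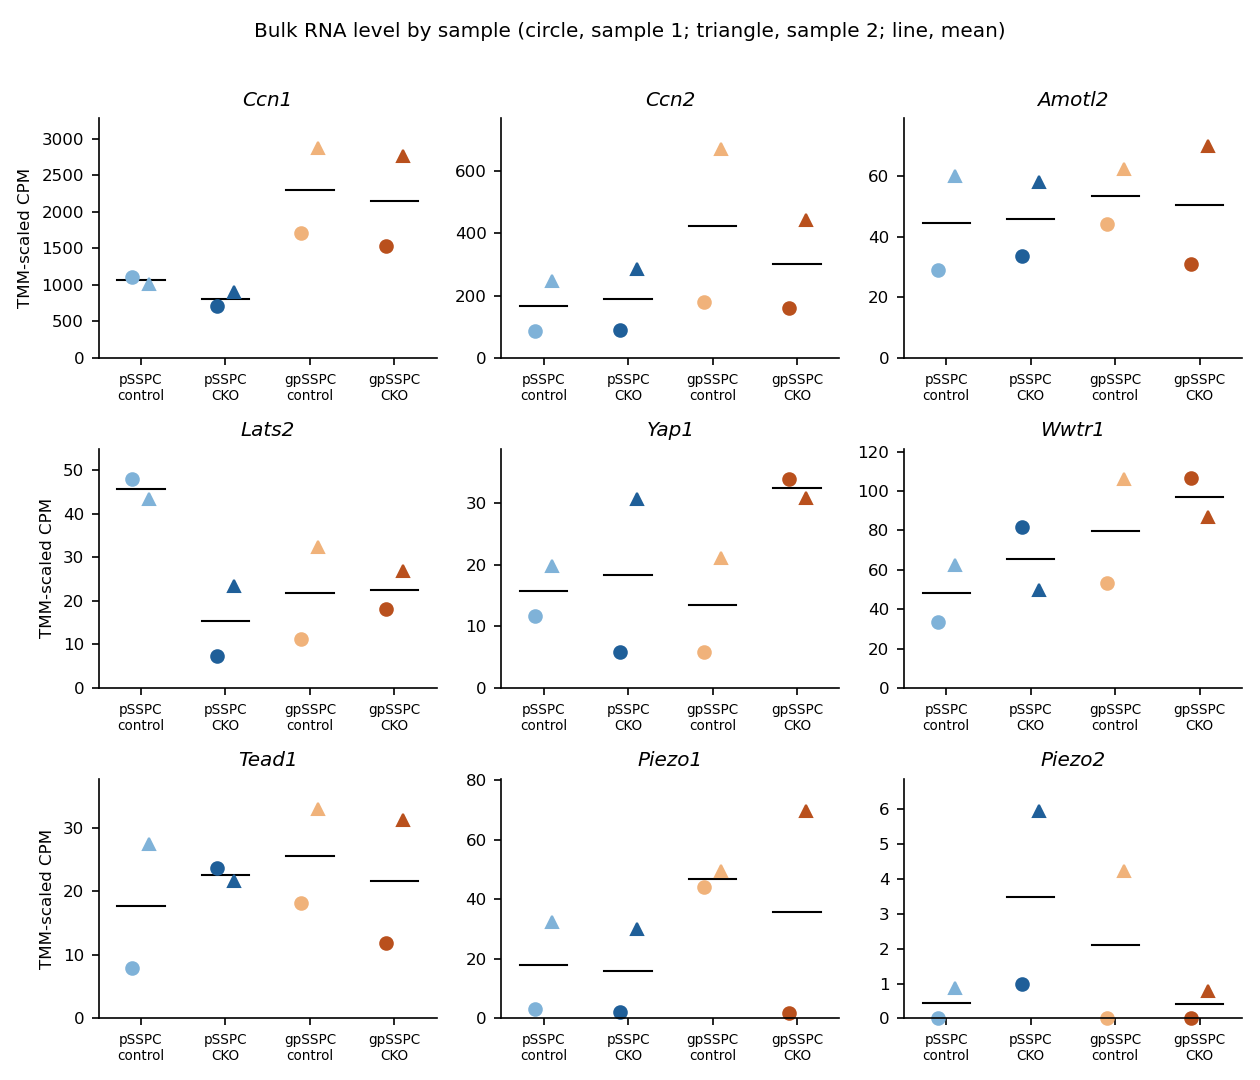
Bulk RNA levels of 9 members (Ankrd1, at 0 counts in every library, is not drawn) in TMM-scaled CPM on a linear axis, by population and genotype. Circles are sample 1, triangles sample 2 and lines the mean of 2 samples. Ccn1 is at or above 1531 in every gpSSPC sample and at or under 1112 in every pSSPC sample, whereas Ccn2 splits more by sample number than by population.

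Z24 deletion moved neither secreted target past the test in either population. With the block the CKO to control difference of Ccn1 was -0.10 ± 0.19 in gpSSPCs and -0.40 ± 0.23 in pSSPCs (adjusted p = 1 for both, edgeR). That of Ccn2 was -0.38 ± 0.23 in gpSSPCs and 0.14 ± 0.44 in pSSPCs (adjusted p = 1 for both). In pSSPCs both CKO samples were below both control samples for Ccn1, as were 11.6% of all genes tested. The blocked fit called 0.0997% of 12041 genes between gpSSPC genotypes (0.0415% higher and 0.0581% lower in CKO) and 0.32% of 11878 between pSSPC genotypes (0.101% higher and 0.219% lower). It called 0 of the 8 members that passed the filter on low counts in either. Without the block edgeR called 0 genes in both, with 57 and 142 at an unadjusted p under 0.05, and DESeq2 called 1 and 0. The genotype and the population comparisons share their control samples.

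Ankrd1, which encodes an ankyrin repeat protein best known in stretched muscle, was at 0 counts in all 12 bulk libraries and at 0 UMIs in all 4 single-cell libraries. Its start had an ATAC peak in 1 of 12 libraries, CKO pSSPC library 3, and its gene plus 10 kb (gene at chr19:36111961-36120099) held 0 to 2 peaks per library. It therefore gives no value on either comparison at this depth.

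Amotl2 encodes an angiomotin that binds YAP and TAZ at cell junctions. Its level was 44.17 and 62.4 TMM-scaled CPM in control gpSSPCs, 29.04 and 59.9 in control pSSPCs, 31.09 and 69.72 in CKO gpSSPCs and 33.59 and 58.06 in CKO pSSPCs. All 4 groups overlapped, and sample 2 was the higher in each. The CKO to control difference was -0.15 ± 0.43 in gpSSPCs with the block.

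Lats2 encodes a kinase that phosphorylates YAP and TAZ, and its level was lower in CKO than in control pSSPCs without passing the test. In pSSPCs it was 47.88 and 43.35 TMM-scaled CPM in control and 7.409 and 23.29 in CKO, where both CKO samples were below both controls (11.6% of genes tested did so). The difference was -1.73 ± 0.99 with the block (adjusted p = 1, edgeR) and -1.56 ± 0.99 without it, and from sample 2 alone -0.89. In gpSSPCs Lats2 was 11.36 and 32.26 in control and 18.09 and 26.74 in CKO, which overlap. Between control populations Lats2 ran opposite to Ccn1, with both gpSSPC samples below both pSSPC samples, as were 14.9% of genes (-1.18 ± 0.86 with the block, adjusted p = 0.686, edgeR). The difference between the genotype effects was 1.96 ± 1.09 (adjusted p = 0.938 with the block).

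Yap1 was higher in both CKO gpSSPC samples than in either control, as were 9.38% of genes tested. Its level was 33.91 and 30.88 TMM-scaled CPM in CKO gpSSPCs and 5.889 and 21.05 in control gpSSPCs. With the block this was 2.77-fold (log2 fold change 1.47 ± 0.71, adjusted p = 1, edgeR), which did not pass, and without it 1.26 ± 0.80. From sample 2 alone, leaving out replicate 1, it was 0.55. In pSSPCs Yap1 was 11.77 and 19.88 in control and 5.927 and 30.66 in CKO, so that the CKO samples lay on either side of the controls. In CKO mice both gpSSPC samples were above both pSSPC samples, by 30.88 against 30.66 at the nearest, as were 14.7% of genes tested. The interaction was 1.63 ± 1.25 with the block and did not pass.

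Wwtr1 and Tead1 overlapped between genotypes in both populations. Wwtr1 was 53.42 and 106.2 TMM-scaled CPM in control and 106.8 and 86.76 in CKO gpSSPCs, against 33.75 and 62.62 in control and 81.5 and 49.72 in CKO pSSPCs. In CKO mice both gpSSPC samples were above both pSSPC samples for Wwtr1 (0.59 ± 0.43 with the block), as were 14.7% of genes. Tead1 ran from 7.849 to 33.01 over the 8 samples, and in the 4 comparisons of 2 groups with the block its difference, of -0.31 to 0.74, was smaller than its SE.

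Piezo1 varied with the sample number more than with the group. Its level was 44.17 and 49.32 TMM-scaled CPM in control gpSSPCs, but 1.696 and 69.72 in CKO gpSSPCs, 3.14 and 32.48 in control pSSPCs and 1.976 and 30.11 in CKO pSSPCs. Sample 1 was under 5 in every group but control gpSSPCs, where 105 counts were found in replicate 1 against 4, 4 and 3 in the replicate 1 libraries of the other groups. The control population difference was 2.00 ± 0.94 with the block (adjusted p = 0.345) and the gpSSPC genotype difference -1.41 ± 0.79 (adjusted p = 1), and neither passed. Both control gpSSPC samples lay above both control pSSPC samples, as did 17.3% of genes. Without replicate 1 the control population difference was 0.60 and the gpSSPC genotype difference 0.50, the latter in the other direction. Piezo2 had 0 to 37 counts per library, did not pass the filter in any comparison within a population or genotype, and in the interaction gave -5.44 ± 2.47 with the block (adjusted p = 0.938).

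**Figure D2:**
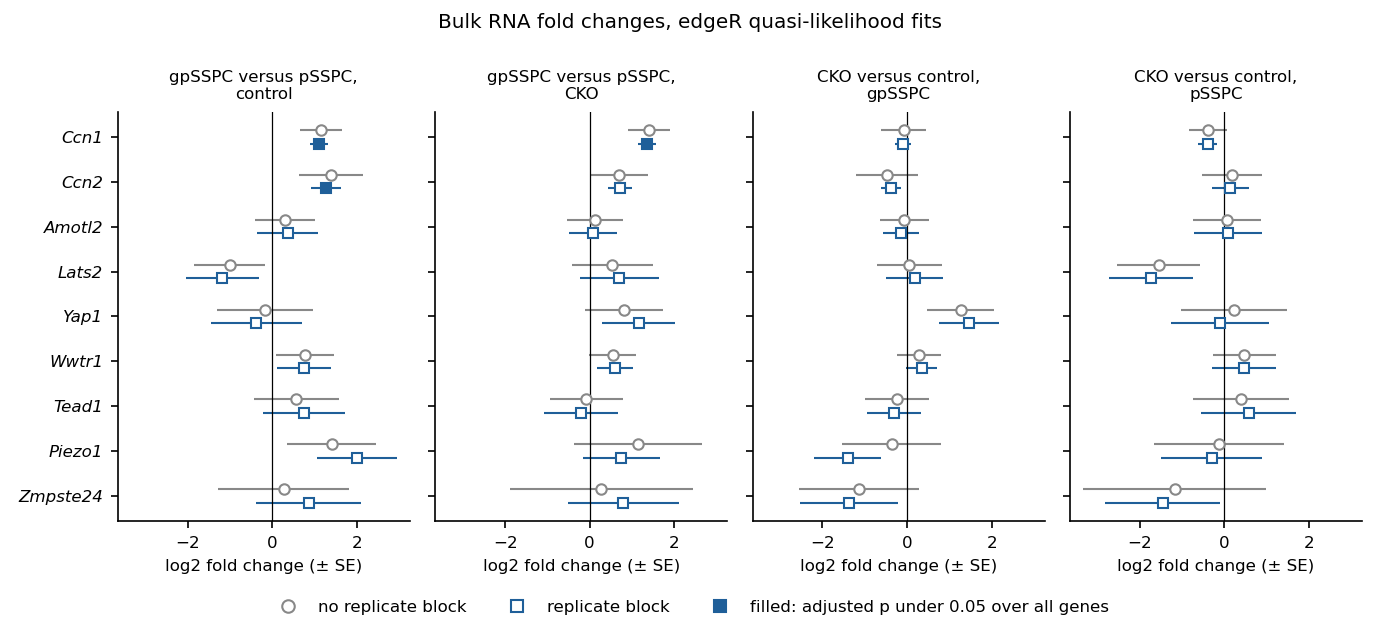
Log2 fold changes of the tested members with their SE in 4 comparisons: CKO against control in gpSSPCs and in pSSPCs, and gpSSPCs against pSSPCs in control and in CKO mice. Grey circles are the edgeR fit without a block, blue squares the fit blocked by replicate number, and filled symbols have an adjusted p under 0.05. The only filled symbols are Ccn1 in both population comparisons and Ccn2 in control mice, all with the block.

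Wider lists of pathway genes, which include members, moved in mixed directions between the populations, and the calls below come from the blocked fit. The YAP target list holds Ccn1, Ccn2, Ankrd1, Amotl2 and Lats2, so its counts and medians partly repeat the values above. Of 26 listed YAP target genes 23 were tested between control populations, of which 5 rose and 1 fell in gpSSPCs (beside 1.29% and 1.9% of all genes), with a median log2 fold change of 0.87 beside 0.11 over all genes. Without the block this median was 0.3 beside 0.02, and with the block in 1 fit over all 4 groups it was 0.65 beside 0.04. Ccn1, Ccn2, Nt5e and Gadd45b were among those that rose, and the gene that fell was Axl, a receptor tyrosine kinase. Nt5e encodes CD73, the marker gpSSPCs were sorted by, so its rise of 2.08 ± 0.48 restates the sort. In CKO mice 4 of 24 rose (Ccn1, Nt5e and Gadd45b among them) and Axl fell (beside 2.33% and 2.27%), with a median of 0.27 beside -0.02 over all genes. Gadd45b was named after its values were seen. With the block in 1 fit over all 4 groups 5 of 24 target genes rose and 3 fell in control gpSSPCs, and 3 of 18 focal adhesion and actin cytoskeleton genes fell. Of all 13173 genes in that fit 164 rose and 312 fell.

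Axl was 53.84 and 97.53 TMM-scaled CPM in control gpSSPCs and 292 and 326.4 in control pSSPCs (-2.05 ± 0.42, adjusted p = 9.61e-05). The populations did not overlap in either genotype, as was so in this direction for 14.9% of genes in control and 15.7% in CKO mice.

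Of 20 listed mechanosensitive channels and junction genes, 13 were tested between control populations and only Trpv4 was called, higher in gpSSPCs. Trpv4, a calcium channel gene active in cartilage, was 270.5 and 166 TMM-scaled CPM in control gpSSPCs against 53.37 and 34.71 in control pSSPCs (2.34 ± 0.49, adjusted p = 0.00017), and 182.6 and 139.8 against 56.8 and 30.98 in CKO mice (1.92 ± 0.40, adjusted p = 8.4e-05). No group of gpSSPC samples overlapped pSSPCs, as was so in this direction for 17.3% of genes in control and 14.7% in CKO mice. The medians of this list were -0.15 and -0.23.

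Core Hippo genes, 27 tested of 32 in control and 28 in CKO mice, gave 0 calls in control (median -0.20) and 1 in CKO, Vgll4, a TEAD cofactor gene (1.52 ± 0.32, named after its value was seen). Among 18 tested focal adhesion and actin cytoskeleton genes only Filip1l was called in this fit, lower in gpSSPCs (-2.52 ± 0.61, adjusted p = 0.00207, and -2.94 ± 0.46, adjusted p = 2.17e-08). Filip1l stood at 117 and 161.4 TMM-scaled CPM in control pSSPCs and at 20.19 and 26.9 in control gpSSPCs. None of 12 tested targets of SRF and its cofactors was called in either comparison, with medians of 0.12 and 0.45.

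Markers and stress genes moved with the populations too. Of 9 chondrocyte markers 8 rose in gpSSPCs in control and in CKO mice (medians 2.06 and 1.44), led by Col2a1 in control mice (2.74 ± 0.14), with Col9a1, Matn3 and Col9a2 after it. Of 7 osteoblast markers 5 rose in each (medians 1.72 and 1.83), Ibsp first (2.73 ± 0.13 and 2.66 ± 0.17), with Bglap, Spp1 and Bglap2 also named in CKO mice. Of 9 periosteal markers 6 and 8 fell. Sox10, a Schwann cell gene, rose by 5.36 ± 1.63 in control mice. In CKO mice 1 of 7 BMSC genes, Adipoq, rose (2.59 ± 0.76) and 2 fell, Cxcl12 and Lpl (median -0.67, both named after their values were seen), and 1 of 5 pericyte genes, Rgs5, fell by 2.49 on the log2 scale. Of 18 immediate early genes, which respond within minutes to stimulation and to tissue digestion, 2 rose in control (Atf3 and Btg2) and 6 in CKO gpSSPCs (Fosb, Junb, Egr1, Ier2, Ier3 and Btg2, all named after their values were seen), with medians of 0.33 and 0.42. Ccn1 is itself an immediate early gene. Of the other markers 2 of 4 erythroid, 2 of 3 Schwann cell and 1 of 5 tenocyte genes rose and 1 of 7 BMSC genes fell in control gpSSPCs, and 0 of 4 pericyte, 0 of 5 endothelial, 0 of 5 myeloid and 0 of 3 muscle genes were called. No lymphoid gene passed the filter there. In CKO mice 1 of 2 Schwann cell and 1 of 5 tenocyte genes rose, and 0 of 3 erythroid, 0 of 6 endothelial, 0 of 5 myeloid, 0 of 2 lymphoid and 0 of 3 muscle genes were called. With the block in 1 fit over all 4 groups 0 of 7 BMSC, 0 of 3 Schwann cell and 4 of 18 immediate early genes were called in CKO mice. Between control populations that fit called 0 of 5 erythroid genes. Erythroid markers, led by Hbb-bs, split the samples by number, at 20.61 summed CPM in control gpSSPC sample 1 and 6393 in sample 2. The part of these markers and genes in the Ccn1 and Ccn2 differences was not tested.

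Between genotypes the same lists held no called Hippo, YAP target, channel, adhesion, SRF or immediate early gene in either population. The YAP target medians were -0.04 in gpSSPCs (23 tested, all genes -0.02) and -0.10 in pSSPCs (24 tested, all genes 0.01). What was called were cell markers. In gpSSPCs 3 of 9 chondrocyte markers fell, Col9a1 (-1.36 ± 0.20, adjusted p = 0.0011), Col2a1 (-1.21 ± 0.19, adjusted p = 0.00169) and Matn3 (-1.19 ± 0.21, adjusted p = 0.00565). Of the 9 markers 2 had a higher estimate in CKO. Without the block 0 of them was called, and with the block in 1 fit over all 4 groups 2 were called lower. With each library counted as a sample and the block kept, 0 genes were called between gpSSPC genotypes. In pSSPCs the lubricin gene Prg4 rose (1.70 ± 0.09, adjusted p = 7.1e-72), and Igfbp6 (-1.21 ± 0.12, adjusted p = 2.42e-20) and Dcn (-0.87 ± 0.09, adjusted p = 3.7e-20) fell. These values come from 2 samples per group and errors pooled over genes. Between pSSPC genotypes edgeR without the block and DESeq2 called 0 genes. With each library counted as a sample and the block kept, 5 genes were called there.

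Over the 8 bulk samples, genes with the most similar log2 levels were named for each target by Pearson correlation among 5992 genes with a mean of at least 20 TMM-scaled CPM. For Ccn1 they were Prelp (0.977), Mfge8 (0.965) and Epyc (0.961), of which Prelp and Epyc encode small leucine-rich proteoglycans of cartilage. For Ccn2 they were Srsf5 (0.973), Cd24a (0.973) and Gm14303 (0.964), for Amotl2 Sept1 (0.996), Pitpnb (0.988) and Rpl32l (0.984), and for Lats2 they included Zswim4 (0.985) and Creb3 (0.963). All samples share a split by sample number, so these values describe 8 points that are not independent. Rpl32l is a ribosomal protein copy whose reads can come from its parent gene.

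Single cells show which classes of bone and marrow hold these transcripts. Cells were clustered without the 10 genes, and classes were named by markers. At 8 weeks 235 chondrocyte-like cells led by Matn3, Mia and Cnmd, 1118 bone marrow stromal (BMSC)-like cells led by Trf, Il1rn and Adipoq, 234 osteoblast-like cells led by Bglap, Bglap2 and Car3, 137 periosteal (PMSC)-like cells led by Prg4, Cilp and Igfbp6, 34 pericyte-like cells led by Rgs5, Tagln and Acta2 and 17 endothelial-like cells led by Egfl7, Gpihbp1 and Ctla2a were found. At 16 weeks there were 3764 BMSC-like cells in clusters led by Ccl9, Adipoq and Esm1 and by Lepr, Ebf3 and Pappa, 357 osteoblast-like (Car3, Col1a1, Ifitm5), 138 PMSC-like (Prg4, Igfbp6, Clec3b), 78 chondrocyte-like (Serpina1a, 3110079O15Rik, Serpina1d), 50 pericyte-like (Acta2, Tagln, Rgs5) and 43 erythroid-like cells (Car2, Hbb-bt, Car1), the last despite the Ter119 gate. With 1 library per condition no test between libraries was possible.

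Ccn1 was highest in chondrocyte-like cells in all 4 libraries, among the classes named here. There it was 1638 CPM (exact Poisson interval 1532 to 1750) in the Prx1-Cre, 1671 (1520 to 1832) in the Osx-Cre, 1821 (1655 to 1999) in the control and 1862 (1578 to 2183) in the CKO library. In BMSC-like cells it was 834 (759 to 915), 1002 (916 to 1094), 375 (352 to 399) and 649 (620 to 678). PMSC-like cells had 365, 535, 245 and 542 CPM, of which the Osx-Cre value rests on 10 cells. The chondrocyte-like intervals did not overlap those of the BMSC-like or PMSC-like cells in any library. With clusters cut finer, at a resolution of 0.5, an unnamed cluster led by Il1rn, Gm12216 and Nnmt stood at 1826 CPM in the Osx-Cre library, above the chondrocyte-like 1671, and at 1408 in the Prx1-Cre library, below them. Ccn1 had a UMI in 85.7, 86.5, 75 and 88.9% of chondrocyte-like cells and in 40, 40, 23 and 34.5% of BMSC-like cells, in the same library order, and at 16 weeks in 17.4 and 25% of erythroid-like cells, which should lack it. Chondrocyte-like cells were deeper, at medians of 3209, 3173.5, 3297.5 and 4620 UMIs against 895.5, 839.5, 1393.5 and 1256.5 in BMSC-like and 2293 and 3170.5 in erythroid-like cells. Cells of at least 1000 UMIs were also thinned to that number, which left out 360 of 570, 362 of 548, 507 of 1690 and 794 of 2074 BMSC-like and 17, 7, 6 and 0 chondrocyte-like cells as too shallow. In the remaining cells the shares with a Ccn1 UMI were 69.4, 71.6, 53.7 and 77.8% in chondrocyte-like, 40, 52.7, 20 and 32% in BMSC-like and, at 16 weeks, 5.56 and 16.7% in erythroid-like cells. The BMSC-like shares therefore describe the deeper cells, and in the Osx-Cre library this share was higher than that over all cells.

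**Figure D3:**
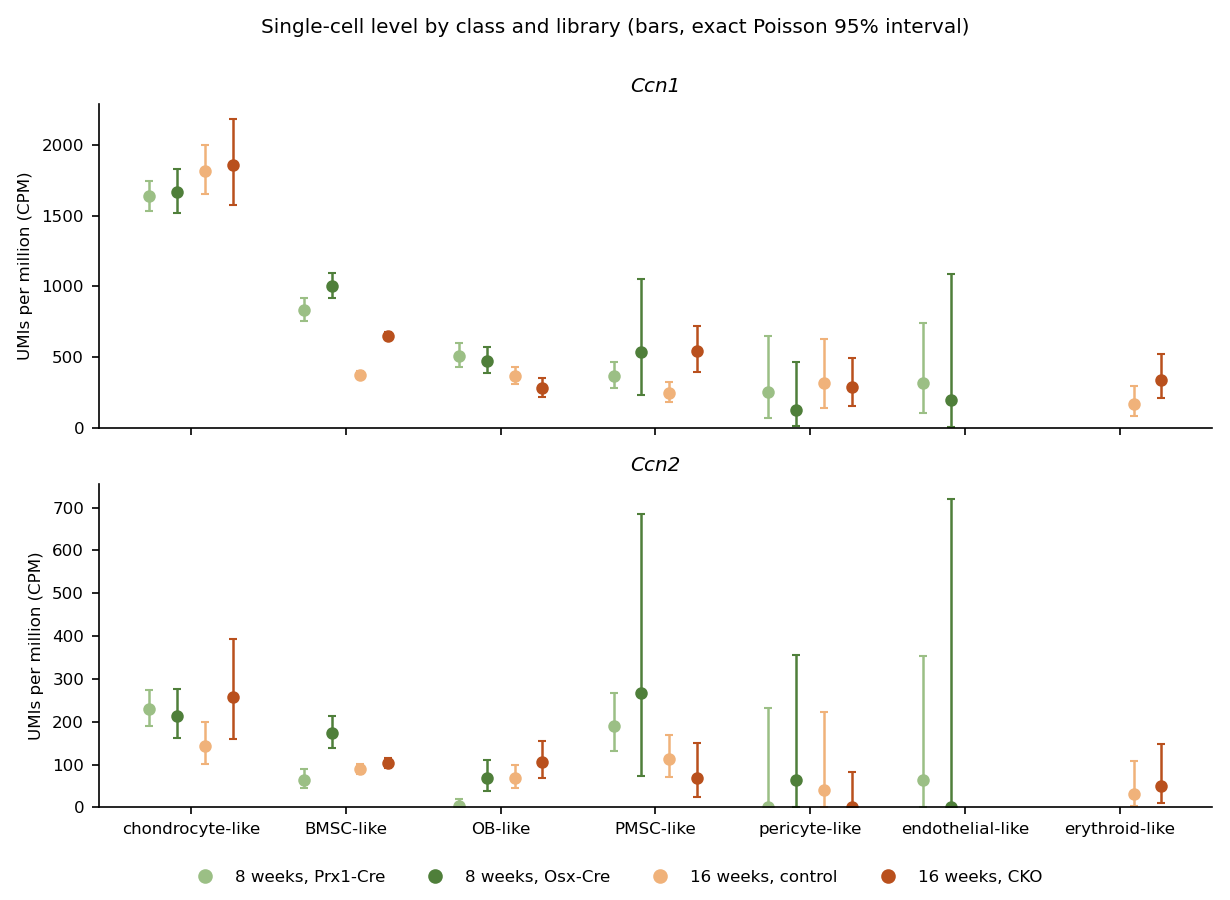
Ccn1 and Ccn2 in CPM of summed UMIs (linear axis) by cell class in each of the 4 single-cell libraries, with 95% exact Poisson intervals that cover counting error only. Ccn1 stands at 1638 to 1862 in chondrocyte-like cells of all libraries, above every other class drawn, whereas the Ccn2 intervals of chondrocyte-like and PMSC-like cells meet in all but the CKO library.

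Ccn2 was also highest in chondrocyte-like cells in the Prx1-Cre, control and CKO libraries, at lower levels than Ccn1. In chondrocyte-like cells it was 230 (191 to 274), 214 (162 to 277), 144 (100 to 201) and 257 CPM (159 to 393) in the same library order, and in BMSC-like cells 65, 173, 89.1 and 103. PMSC-like cells had 191 (132 to 267), 267 (72.9 to 685, 4 UMIs), 112 (70.4 to 170) and 69.1 (25.4 to 150), and these intervals overlap those of the chondrocyte-like cells in all but the CKO library. Osteoblast-like cells had 3.69 (1 UMI), 67.7, 68.7 and 106. Erythroid-like cells had 2 and 3 UMIs of Ccn2.

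Other listed genes divided between the same classes. Trpv4 from the channel list was at 179, 173, 198 and 221 CPM in chondrocyte-like cells and at 7, 4, 3 and 4 in BMSC-like cells, in that library order. Axl was at 146, 134, 230 and 115 in PMSC-like cells, and its 4 values in chondrocyte-like cells were 4, 0, 0 and 0. Amotl2 ran the other way to Ccn1 at 16 weeks, at 121 (108 to 135) and 97.5 (86.6 to 109) in control and CKO BMSC-like cells against 37.1 and 12.3 (1 UMI) in chondrocyte-like cells. Lats2 was at 55.8 and 53.3 in these BMSC-like cells and at 16.5 (4 UMIs) and 24.5 (2 UMIs) in the chondrocyte-like cells.

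The coactivator and channel genes were near the limit of detection. Yap1 had 25, 24, 96 and 72 UMIs over all cells of the 4 libraries (16.1, 23.1, 26.6 and 20.6 CPM). Wwtr1 was at 67.2 (47.1 to 93.1), 59.0, 49.4 (25.5 to 86.4) and 123 (58.8 to 225) in chondrocyte-like cells and at 26.0, 36.2, 26.2 and 21.8 in BMSC-like cells. Tead1 was at 53.9 and 61.3 in control and CKO BMSC-like cells at 16 weeks and at 16.5 and 0 in chondrocyte-like cells, where 0 UMIs in CKO allow up to 36.8 CPM. Piezo1 had 39 UMIs at 8 and 158 at 16 weeks, and Piezo2 6 and 2.

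Within BMSC-like cells at 16 weeks Ccn1 was higher in the CKO library, at 649 against 375 CPM, a ratio of 1.73 (1.60 to 1.87, counting error only). Ccn2 stood at 103 against 89.1, a ratio of 1.16 (0.98 to 1.38). The Ccn1 order held in both BMSC-like clusters, from 414 (387 to 443) to 750 (713 to 788) in that led by Ccl9 and from 240 (202 to 282) to 415 (374 to 459) in that led by Lepr. Immediate early genes were higher beside it, and their 18 genes summed to 3176 CPM in control and 8628 in CKO cells of the Ccl9 cluster and to 1596 and 3085 in the Lepr cluster. Their part in the Ccn1 difference was not tested. Hemoglobin and other erythroid transcripts summed to 17998 CPM in control and 846 in CKO cells of the Lepr cluster. Outside BMSC-like cells the Ccn1 values went both ways. PMSC-like cells had 245 (181 to 325) in control and 542 (398 to 720) in CKO, with intervals apart, while their immediate early sum was 6572 and 7155. Erythroid-like cells, which should lack Ccn1, had 167 (83.2 to 298) and 340 (207 to 525), and osteoblast-like cells 365 (309 to 429) and 280 (218 to 354), with intervals that overlap. In chondrocyte-like cells, where immediate early genes summed to 23782 in control and 19813 in CKO cells, Ccn1 was 1821 and 1862 CPM with intervals that overlap. These directions rest on 1 library per genotype and on the labels of those libraries.

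**Figure D4:**
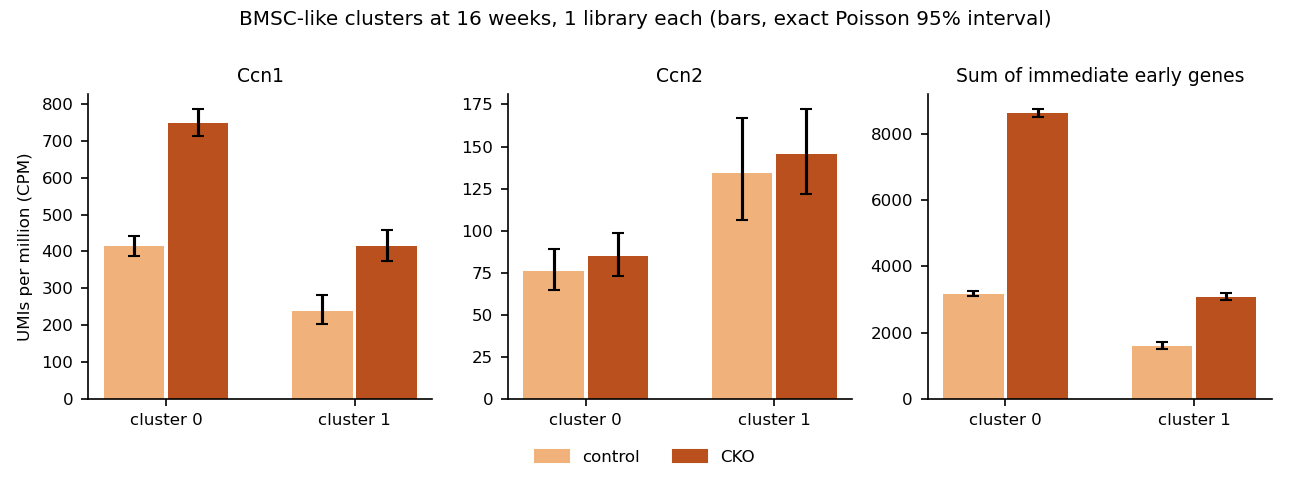
Ccn1, Ccn2 and the sum of 18 immediate early genes in CPM of summed UMIs in the 2 BMSC-like clusters at 16 weeks, control beside CKO, on axes that start at 0 (exact Poisson intervals for counting error only). Ccn1 goes from 414 to 750 and from 240 to 415, the immediate early sum from 3176 to 8628 and from 1596 to 3085, and Ccn2 from 76.1 to 85 and from 134 to 145.

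In ATAC-seq 225 merged peak regions lay within 10 kb of the 10 genes, 38 of them in all 12 libraries, as were 14.3% of 176624 regions genome-wide. Between control populations 186 regions had a peak, and 35 of them (18.8%) were called in 3 of 3 gpSSPC and 0 of 3 pSSPC libraries, beside 16.2% of 147302 regions genome-wide. Another 9 (4.84%) were called the other way round, beside 5.84%. These shares are near the background, and control gpSSPC libraries had more peaks in all (88095 to 98549 against 59209 to 79724).

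Regions called in only 1 population lay at both secreted targets, as they did across the genome. Over both genotypes 20 of the 225 regions (8.89%) were in 6 of 6 gpSSPC and 0 of 6 pSSPC libraries, beside 6.1% of 176624 regions genome-wide, and 9 (4%) the other way round, beside 3.6%. Of these Ccn1 held 1 of the 20, and Ccn2 1 of the 20 and 1 of the 9. At Ccn1 the start region chr3:145649037-145650481 (mm10) and an upstream one at chr3:145651461-145653891 were open in all 12 libraries. A region 11185 bp downstream of the start, chr3:145638417-145639175, was called in 6 of 6 gpSSPC and 0 of 6 pSSPC libraries, with a -log10 q of 7.6 to 23.6, in both genotypes. Another, 3644 bp downstream at chr3:145646004-145646670 and just past the end of the gene, was called in 3 control and 2 CKO gpSSPC libraries and in 1 of 6 pSSPC libraries. Both lie outside the gene.

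Among the Ccn2 regions described here, those called mainly in gpSSPCs lay nearer the start than those called mainly in pSSPCs. Around the start region at chr10:24595251-24597523, open in all 12 libraries, chr10:24593122-24593518 (-2122 bp from the start) was called in 6 of 6 gpSSPC and 0 of 6 pSSPC libraries, with a -log10 q of 12.3 to 35.9. The region chr10:24602381-24602839 (7168 bp downstream of the start) was called in 6 of 6 pSSPC and 0 of 6 gpSSPC libraries. A region at -5968 bp, chr10:24588811-24590138, was called in 6 of 6 pSSPC, 2 of 3 control gpSSPC and 0 of 3 CKO gpSSPC libraries, and one 4408 bp downstream, chr10:24599363-24600337, in 6 gpSSPC and 1 CKO pSSPC library. These 4 regions lie outside the gene.

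The start peak of Ccn2 was lower in control gpSSPC than in control pSSPC libraries. Ranked by -log10 q it stood at the 70.45, 77.78 and 77.95 percentile of the peaks in control gpSSPC libraries and at 87.83, 91.85 and 86.16 in control pSSPC libraries. The groups did not overlap (exact permutation test, p = 0.1, the smallest that 3 against 3 allows), as was so in this direction for 5.85% of 14833 genes. The ranks come from lists of 88095 to 98549 and 59209 to 79724 peaks. Its fold enrichment over the local background, a value that does not use the list length, was 3.02, 3.53 and 3.28 against 6.55, 7.72 and 6.14, also without overlap. A lower fold enrichment without overlap was not particular to Ccn2. Amotl2, Lats2, Wwtr1 and Piezo1 had it too, while Ccn1, Yap1, Tead1 and Piezo2 overlapped. No share over all genes is given for this value, so whether it exceeds a shift of the whole libraries was not tested. The percentile of the Ccn1 start peak overlapped, at 62.39, 73.48 and 72.57 in control gpSSPCs against 66.46, 74.23 and 61.22 in control pSSPCs.

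Fewer peaks were called around Yap1 in CKO than in control gpSSPC libraries, and more on average in CKO than in control pSSPC libraries. Yap1 (chr9:7931999-8004596) had 12, 11 and 9 peaks in control and 6, 8 and 8 in CKO gpSSPC libraries, and 4, 6 and 8 in control and 8, 11 and 10 in CKO pSSPC libraries. In gpSSPCs the groups did not overlap (exact p = 0.1), as was so in this direction for 6.9% of 18036 genes and in the other for 0.177%. The difference of the genotype effects was tested for each of the 10 members by exact permutation of genotype within population (400 arrangements). With no adjustment the exact p was under 0.05 for 3 of them, Yap1 (-7.0 peaks, p = 0.01), Ccn1 (-2.67, p = 0.035) and Tead1 (-11.0, p = 0.045), beside 7.19% of 18433 genes (7.18% with a difference below 0). Per 100000 peaks it was so for 0 of 10, beside 15.2% (1.84% below 0), so these are values and not calls. All peaks of the libraries moved the same ways, by -16585 in gpSSPCs and 18524.67 in pSSPCs on average (difference p = 0.015, exact), and per 100000 peaks the Yap1 difference was -4.2 and that of Ccn1 -0.48. The Yap1 start peak stood at the 80.76, 83.74 and 85.15 percentile in CKO and 85.27, 89.41 and 88.74 in control gpSSPCs, where 12.8% of 14743 genes were lower without overlap, but these ranks come from lists of 68961 to 84100 and 88095 to 98549 peaks. Its fold enrichment overlapped, at 6.87, 7.09 and 6.18 against 7.02, 7.39 and 6.96. Inside the gene chr9:7943555-7944636 and chr9:7961400-7962455 were each called in 3 control and 1 CKO gpSSPC library.

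Ccn1 had 4, 4 and 4 peaks in control and 6, 6 and 6 in CKO pSSPC libraries, without overlap (exact p = 0.1), as was so for 6.46% of 17721 genes, and 7, 6 and 5 against 6, 4 and 6 in gpSSPCs. Wwtr1, Tead1 and Piezo1 had more peaks in control gpSSPCs than in control pSSPCs without overlap, along with Ccn1 and Yap1, where 29.2% of 18188 genes did. Wwtr1 (chr3:57455649-57575910) had 29, 26 and 25 against 14, 11 and 20, Tead1 (chr7:112679318-112906807) 37, 35 and 31 against 17, 17 and 25, and Piezo1 (chr8:122481698-122551329) 16, 15 and 16 against 13, 9 and 12. Those 5 of 10 genes stand beside libraries with more peaks throughout.

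Ccn2, Amotl2, Lats2, Ankrd1 and Piezo2 overlapped between control populations. Amotl2 (chr9:102716672-102733418) had 4 to 8 peaks in every library and Lats2 (chr14:57689662-57758388) 6 to 13. Between genotypes 1 of 165 regions (0.606%), at Tead1, was in 3 of 3 control and 0 of 3 CKO gpSSPC libraries, beside 1.32% of 130718 regions genome-wide, and 0 were in CKO only, beside 0.0459%. In pSSPCs 4 of 153 regions (2.61%), 1 at Piezo1 and 3 at Piezo2, were in 3 of 3 CKO and 0 of 3 control libraries, beside 2.81% of 115486, and 0 were in control only, beside 0.119%.

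**Figure D5:**
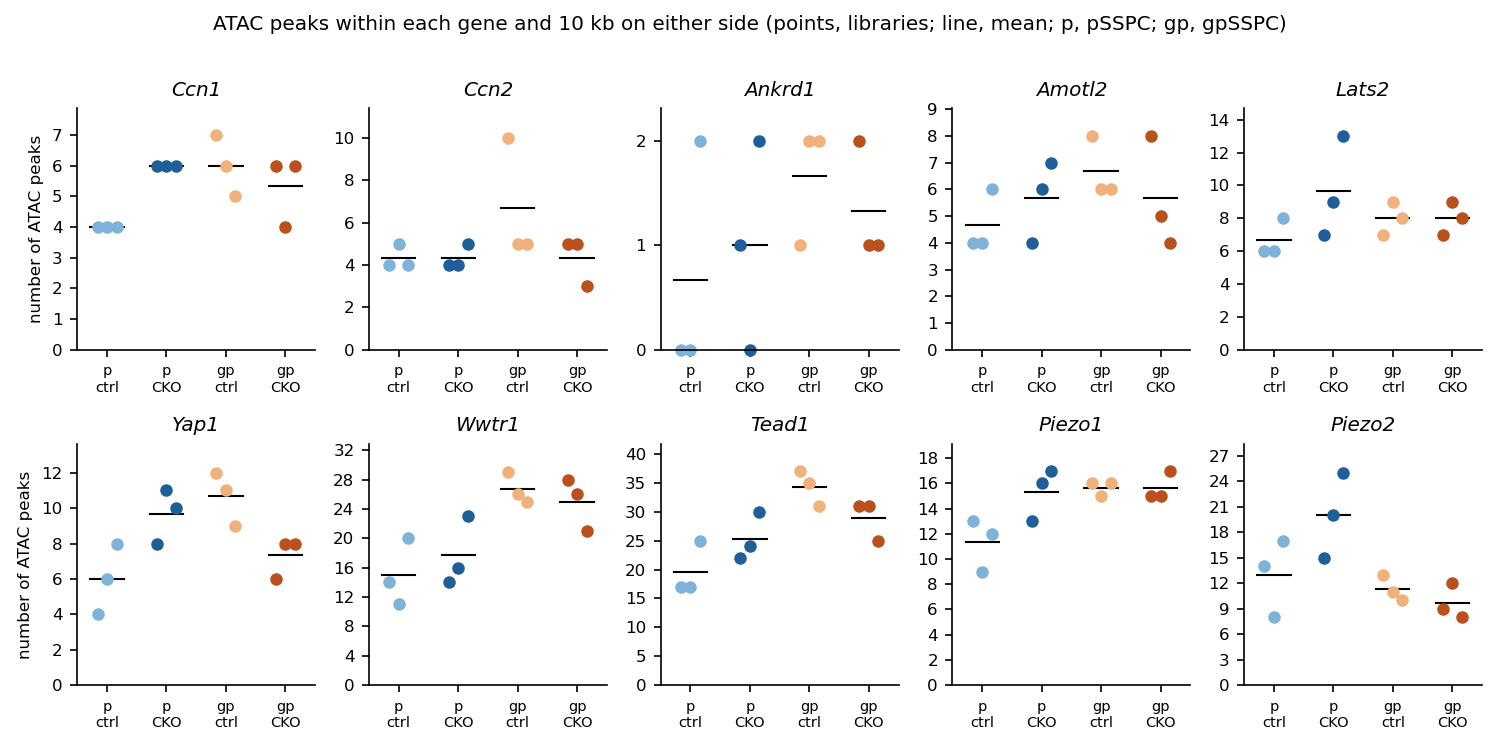
Number of ATAC peaks within each gene and 10 kb on each side, in each of 12 libraries (points, 3 per group, with population and genotype on the horizontal axis). Yap1 has 9 to 12 in control and 6 to 8 in CKO gpSSPCs, and 4 to 8 in control and 8 to 11 in CKO pSSPCs, and Wwtr1 and Tead1 have more peaks in control gpSSPCs than in control pSSPCs.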

How the data were processed

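The authors mapped bulk reads to mm10 with STAR and deposited HTSeq gene counts after UMI deduplication, and deposited Cell Ranger UMI counts. ATAC reads were aligned with Bowtie2 and peaks called per library with MACS2, and the deposited peak files give a pileup signal, a fold enrichment ratio and −log10 p and q values. Here edgeR 4.0.16 (TMM, filterByExpr, quasi-likelihood test, Benjamini-Hochberg over all genes tested, threshold 0.05) was fitted in R 4.3.3 to the 2 groups of each comparison, without a replicate block as main fit, with DESeq2 1.42.0 as alternative, and tested on simulated data. Replicate numbers pair the samples because every same-numbered pair correlated over 0.1 in deviations from group means. Cells with at least 200 genes were clustered in Seurat 5.3.0 (20 components and resolution 0.14 at 8 weeks, 22 and 0.15 at 16 weeks) without the members among the variable features, doublets were not removed, and UMIs were summed per class. Cells sum to 1 sample each. Peaks were counted within 10 kb of a gene. Alternatives were other normalization, filters, left-out libraries, thinning, other clustering and other peak rules.

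The members, lists and tests were chosen with earlier results of these data known. Named genes were the members, Zmpste24, up to 10 called list genes per RNA comparison by size (at most 4 per list), 3 most correlated genes per target and 3 leading genes per class. The sources disagree on the bulk control genotype, which is not resolved here. Some listed genes that enter the counts are not reported here by name.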

Additional observations from a re-analysis of the deposited data

How the results depend on the processing

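With the replicate number as a block, which pairs same-numbered samples, the counts of called genes went from 0 to 12 (gpSSPC genotype), 38 (pSSPC genotype), 388 (control populations), 541 (CKO populations) and 2 (interaction), and from 0 to 44 for the listed genes called in any comparison. In that order and for the same 4 comparisons of 2 groups, the block within 1 fit over all 4 groups, added after seeing the data, gave 8, 13, 476 and 311, no filter gave 3, 5, 61 and 50 (interaction 2), and the study's thresholds (unadjusted p under 0.05, absolute log2 fold change over 0.25) gave 57, 142, 630 and 518 with edgeR and 106, 318, 946 and 700 with DESeq2, the tool the study used them with. DESeq2 gave 1 gene between gpSSPC genotypes and 163 and 99 between populations, the 163 as 42 higher and 121 lower in gpSSPCs, where the block gave 157 and 231. With each library counted as a sample the population counts were 247 and 180, and with the block added to that, also chosen after seeing the data, 863 and 834, with 5 between pSSPC genotypes and 13 for the interaction. Here more genes were higher than lower in control gpSSPCs, 141 and 106 of the 247 and 498 and 365 of the 863. Among members the block changed the call of Ccn1 in both population comparisons and of Ccn2 in control mice, and no other. RLE scaling moved the median of all genes between control populations from 0.02 to -0.1 and Ccn1 to 0.99, and left every member without a call. No setting called a member between genotypes.

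Signs of small member differences turned with the setting, and the cause was not tested. Leaving out replicates gave log2 ranges between gpSSPC genotypes of -0.10 to 0.16 for Amotl2, -0.27 to 0.15 for Lats2, -0.29 to 0.35 for Wwtr1 and -0.44 to 0.50 for Piezo1, and between pSSPC genotypes of -0.069 to 0.16 for Amotl2, -0.33 to 0.50 for Wwtr1 and -0.34 to 0.54 for Tead1. They were -0.25 to 0.081 for Yap1 and -0.064 to 0.31 for Zmpste24 between control populations and -0.19 to 0.53 for Tead1 between CKO populations. Interaction ranges were -0.27 to 0.20 for Amotl2, -0.071 to 1.04 for Yap1, -0.27 to 0.040 for Wwtr1, -0.83 to 0.26 for Tead1 and -0.32 to 0.61 for Piezo1. Each library as a sample gave 0.030 for Amotl2 and -0.10 for Lats2 (-0.014 with the block) between gpSSPC genotypes, 0.11 for Tead1 between CKO populations (0.039 with the block), and interactions of 0.036 for Amotl2 and 0.12 for Piezo1. The block gave -0.11 for Yap1 between pSSPC genotypes (-0.027 in 1 fit over all groups) and a Zmpste24 interaction of -0.34 (-0.16 with each library as a sample).

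Ccn1 in chondrocyte-like cells of both 16-week libraries together was 1831 CPM, and 1486.11 in those thinned to 1000 UMIs. The summed peak number of the 10 genes was lower by a mean of 16.33 in CKO than in control gpSSPC libraries, but per 100000 peaks of the library it was higher by 8.73. Stricter peaks, 50 kb windows, summits and left-out libraries kept the direction of all 3 peak comparisons. With same-numbered libraries as pairs, a replicate block added after seeing the data, the mean differences in summed peaks stayed -16.33, 29.33 and 42.33, with 1 sign in every pair (-23, -10 and -16 between gpSSPC genotypes, 14, 42 and 32 between pSSPC genotypes, 60, 56 and 11 between control populations). The exact p over sign changes was 0.25 in each, the smallest that 3 pairs allow. Every same-numbered pair correlated over 0.1 between gpSSPC genotypes only (0.193 to 0.331), against 0.034 to 0.301 between pSSPC genotypes and -0.086 to -0.006 between control populations. For single cells no paired analysis was possible because each condition has 1 library. In bulk RNA Ankrd1 was at 0 counts and Piezo2 and Zmpste24 were low, which limits the precision of their values.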

Other observations

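Immediate early genes, like Ccn1, were highest in chondrocyte-like cells in all 4 libraries, but the order of the other classes was not that of Ccn1. Their 18 genes summed to 20875 CPM in Prx1-Cre and 19235 in Osx-Cre chondrocyte-like cells, against 9070 and 9061 in BMSC-like, 4025 and 4365 in osteoblast-like and 9209 and 4680 in PMSC-like cells, and 17696 and 5853 in the 12 and 5 endothelial-like cells. At 16 weeks the control library had 23782 in chondrocyte-like, 6572 in PMSC-like, 2823 in BMSC-like and 1076 in erythroid-like cells, and the CKO library 19813, 7155, 6955 and 2021. Osteoblast-like cells were at 2864 in control and 2427 in CKO, and pericyte-like cells at 7268 and 11085. These are sums in 1 library each, with no test.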
